A study of Homo sapiens and Canis lupus familiaris with 27 samples.

Results

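The alpha and beta tubulin mRNAs examined here were 10 genes, TUBA1A, TUBA1B, TUBA1C, TUBA4A, TUBB, TUBB2A, TUBB2B, TUBB3, TUBB4B and TUBB6. They were found by their names in the gene count tables of 3 prostate carcinoma cell lines, which together hold 25300 gene names. All 10 were listed for the human cell lines PC-3 and LNCaP (23708 genes each), and 7 were listed for the canine cell line CT1258 (16028 genes), where TUBA1C, TUBB2A and TUBB3 were not found under these names. The cells were exposed to the indolylmaleimide PDA-66, a compound known to depolymerize microtubules, and poly(A)-selected RNA was sequenced. In 26 samples, it was asked how each tubulin mRNA differed from the controls after both incubation periods, whether it differed between these periods, and whether the cell lines differed in this response.

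PC-3 is a line from a bone marrow metastasis and LNCaP from a lymph node metastasis of human prostate adenocarcinoma, and CT1258 comes from a canine prostate adenocarcinoma. The groups of each line were PDA-66 at 15 µM for 12 h, PDA-66 at 15 µM for 24 h, and the vehicle DMSO at 0.15%, labelled as 24 h. Each group had 3 replicates, apart from PC-3 DMSO with 2, because the study had left out 1 control as an outlier and that sample was not analysed here. Both incubation periods were compared with the same controls, so that the 12 h comparison has no control of its own duration. Each condition rests on 1 cell line, and the replicates are biological ones prepared independently, per the study's methods, within that line.

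Microtubules are built from dimers of alpha and beta tubulin, and the dividing cell rebuilds them as the mitotic spindle. The mRNAs of both proteins are subject to autoregulation. When free dimers accumulate, as after a depolymerizing drug, the ribosome-bound factor TTC5 recognises the amino-terminal end of the nascent alpha or beta tubulin chain, and SCAPER and the CCR4-NOT deadenylase then lead to decay of the mRNA being translated. Gamma tubulin, which nucleates microtubules at the centrosome, does not carry this amino-terminal end. The genes encode isotypes: TUBA1A, TUBA1B and TUBA1C are close copies for alpha tubulin, TUBA4A is a more distant alpha gene, and TUBB, TUBB2A, TUBB2B, TUBB3, TUBB4B and TUBB6 encode beta tubulins, of which TUBB3 is best known from neurons.

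The first 30 coding bases of the human genes are shown because they encode the end of the protein that TTC5 reads. They were read 5′ to 3′ from GRCh37, the build of the human files, at the canonical transcript of GENCODE release 44, and the capitals mark the first 12 bases, the start codon included. TUBA1A, TUBA1B and TUBA1C hold the same 30 bases, and so 1 line stands for these.
TUBA1A: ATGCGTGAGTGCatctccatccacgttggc
TUBA4A: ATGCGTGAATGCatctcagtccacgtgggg
TUBB: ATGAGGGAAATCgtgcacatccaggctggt
TUBB2A: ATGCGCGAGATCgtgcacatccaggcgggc
TUBB2B: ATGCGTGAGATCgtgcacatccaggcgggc
TUBB3: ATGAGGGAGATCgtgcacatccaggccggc
TUBB4B: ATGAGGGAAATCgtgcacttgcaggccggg
TUBB6: ATGAGGGAGATCgtgcacatccaggcgggc
TUBG1: ATGCCGAGGGAAatcatcaccctacagttg

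TUBB lies on the plus strand of chromosome 6 and its bases are at chr6:30688284-30688313. Those of TUBB2A (chr6:3157668-3157697) and TUBB2B (chr6:3227748-3227777) are on the minus strand of the same chromosome, and those of TUBB3 (chr16:89989810-89989839), TUBB4B (chr9:140135813-140135842) and TUBB6 (chr18:12308292-12308321) on plus strands. In the alpha genes an intron follows the start codon, and the bases span it, from TUBA1A (chr12:49580590-49582762, minus strand), TUBA1B (chr12:49523479-49525083, minus strand) and TUBA1C (chr12:49658965-49663274, plus strand) to TUBA4A (chr2:220116926-220118580, minus strand). The gamma tubulin gene TUBG1 (chr17:40761756-40761785, plus strand) begins differently. Among 19869 protein-coding genes, 3 share the capitals of TUBA1A, which are TUBA1A, TUBA1B and TUBA1C. The capitals of TUBB and TUBB4B are also found in TUBB8B, those of TUBB3 and TUBB6 in TUBB8, and those of TUBA4A, TUBB2A and TUBB2B in no other gene.

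Each member had 4 exons in its canonical transcript. Since the copies are alike, the share of 75-base stretches of each transcript that occurs exactly at another place in the genome or in another member was counted, 75 bases being the read length of the study. It was highest for TUBB2A (58.6%) and TUBB2B (52.1%), which share stretches with each other, followed by TUBA1B (48.4%), TUBA1A (31.7%) and TUBA1C (18.1%). TUBB (10.5%), TUBB3 (6.8%) and TUBB4B (5.64%) shared fewer, and for TUBA4A and TUBB6 no such stretch was found. The sources do not state the treatment of reads with more than 1 match, so that the split within TUBA1A, TUBA1B and TUBA1C and between TUBB2A and TUBB2B is uncertain. A further 92.8% of the exon bases of TUBB3 lie within another gene model on the same strand, and 72.6% of those of TUBA1B and 30.6% of those of TUBA4A within genes on the opposite strand (a long non-coding RNA and STK16), without a statement on strand in the counting.

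The PC-3 samples held 14650839 to 18091755 counts and the LNCaP samples 11923105 to 14741883. For CT1258 the range was 7203534 to 20976950, with every control deeper than every PDA-66 sample. The variation between replicates that edgeR estimated, as a coefficient, came to 0.0971 for PC-3, to 0.24 for LNCaP and to 0.1 for CT1258. The 2 PC-3 controls differed from each other with a chi-square per gene of 33.1, compared with 1.88 to 15 within the PC-3 PDA-66 groups. CT1258 DMSO replicate 2 differed from the other controls of its line with a chi-square per gene of 48.9 and 49.1, compared with 3.74 between those. LNCaP PDA-66 12 h replicate 2 stood apart from its group: the chi-square per gene against the other replicates was 203 and 159, compared with 7.06 between those. The labels of the lines were compared with marker genes. In LNCaP, FOLH1 was between 919 and 1409 CPM, whereas PC-3 had 0 counts of KLK2 in each sample, and CT1258 had 0 counts of TMPRSS2. Of the epithelial markers, KRT19 was between 324 and 512 CPM in PC-3 and between 11.8 and 57.6 CPM in LNCaP. CDH1 was between 557 and 810 CPM in LNCaP, but only between 0.979 and 8.37 CPM in PC-3. EPCAM was also low in PC-3, with 5.34 to 12.6 CPM, beside 82 to 122 CPM in LNCaP. In the CT1258 table EPCAM was the only such marker listed, with at most 2 counts, so that the labels of CT1258 could not be checked with these markers. Blood and vessel cell markers summed to between 4.92 and 19.2 CPM in PC-3, mostly PECAM1 (4.09 to 18.5 CPM), to at most 0.447 CPM in LNCaP and to at most 1.9 CPM in CT1258.

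Levels are given as CPM, counts scaled to a common library size, after TMM normalization, and levels of different genes are compared only after division by the transcript length in kb. In the PC-3 controls, TUBB4B was the most abundant member with 539 ± 16.4 CPM per kb (SD, n = 2), followed by TUBB (463 ± 54.7), TUBA1B (426 ± 72.7) and TUBA1C (234 ± 14.9). TUBB3 (106 ± 6.6) and TUBA1A (99.3 ± 8.97) came next and their samples overlapped, as did those of TUBB and TUBA1B. TUBB6 was at 49.4, TUBA4A at 24.6, TUBB2A at 7.33 and TUBB2B at 1.51 CPM per kb.

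In the LNCaP controls, TUBB led with 304 ± 72.6 CPM per kb (SD, n = 3), before TUBA1B (227 ± 62.3) and TUBB4B (156 ± 37.8). The samples of TUBB overlapped those of TUBA1B, and the samples of TUBA1B those of TUBB4B. TUBA1C was at 69.9, TUBA4A at 33.7, TUBB3 at 18.1, TUBA1A at 10.2, TUBB2A at 4.56 and TUBB6 at 0.548 CPM per kb. No count of TUBB2B was found in any of the 9 LNCaP samples, where 3 counts would correspond to between 0.199 and 0.247 CPM, and it was not tested there. Levels per length could not be given for CT1258, for which no annotation was used here. In its controls, TUBA1B was between 1972 and 2681 CPM, whereas TUBA1A and TUBA4A had between 2 and 7 counts in each of the 9 samples and were not tested. Tests were thus made for 10 PC-3 members, for 9 of LNCaP and for 5 of CT1258.

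**Figure D1:**
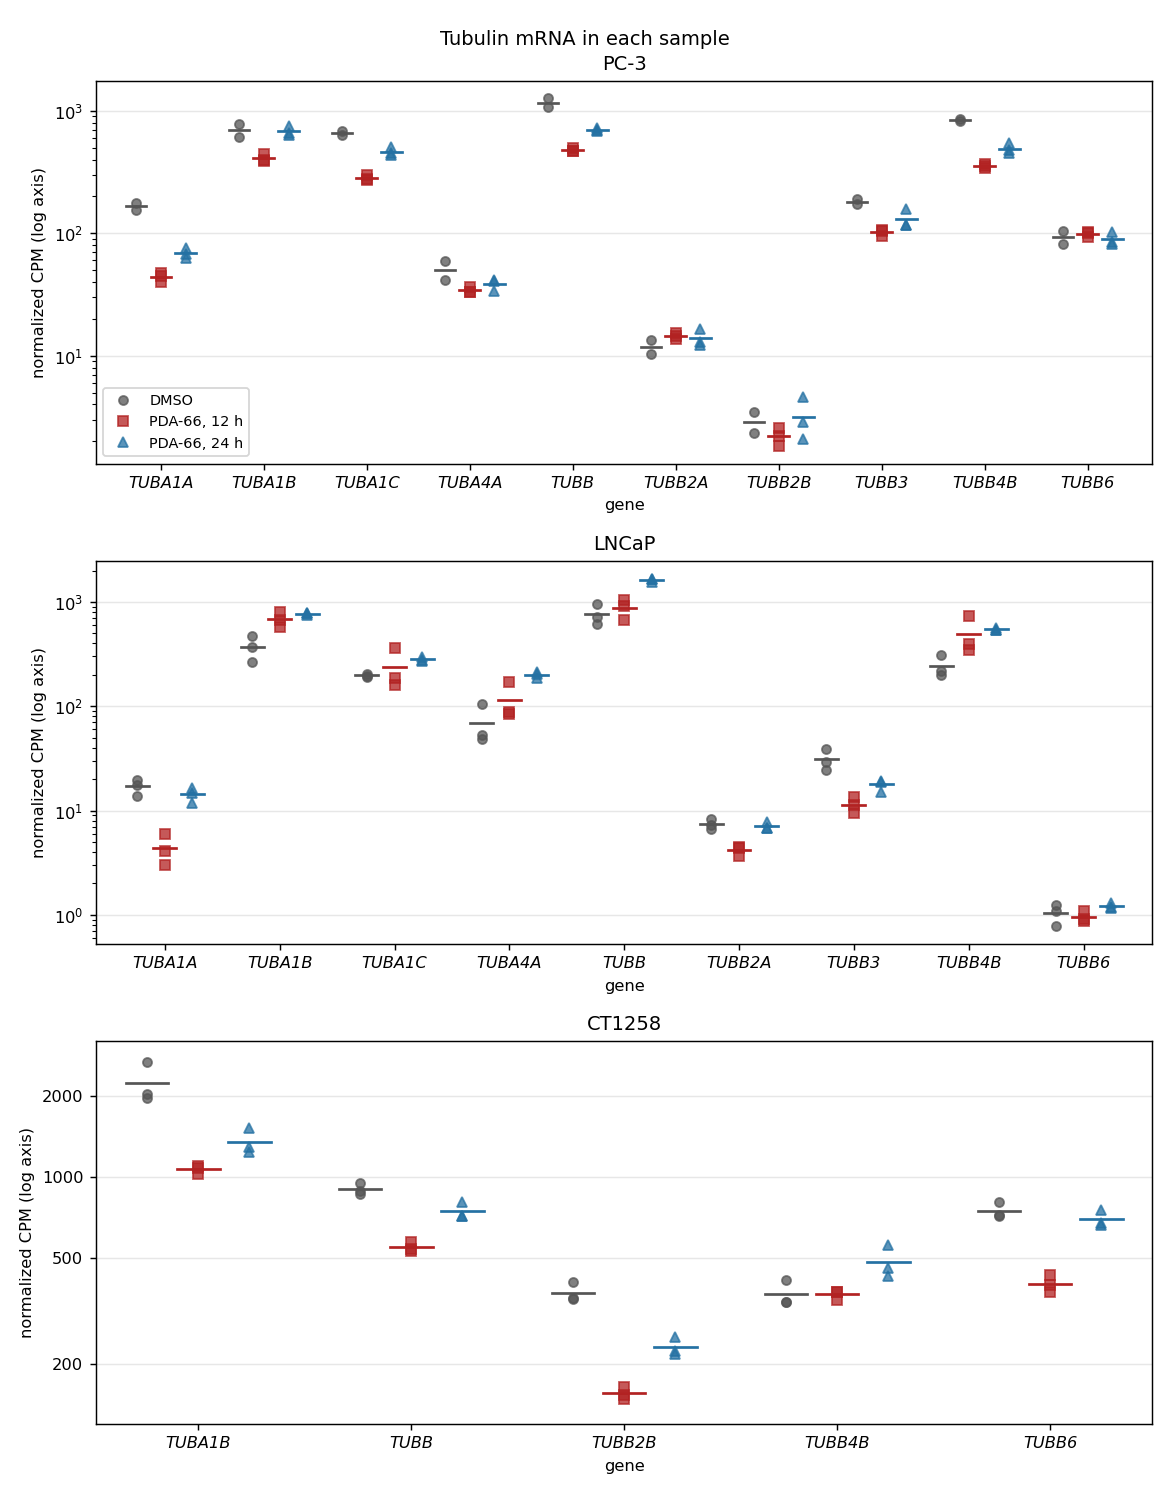
Normalized CPM of each tubulin mRNA (log axis) in every sample of PC-3, LNCaP and CT1258, with points for single samples and horizontal bars for group means (DMSO grey circles, PDA-66 12 h red squares, PDA-66 24 h blue triangles). In PC-3 and CT1258 the 12 h samples of most abundant members lie below the controls and the 24 h samples between, while in LNCaP the 24 h samples of TUBA1B, TUBA4A, TUBB and TUBB4B lie above the controls. Members with under 10 counts in every sample of a line are not drawn.

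In PC-3 cells, most of the abundant tubulin mRNAs fell after 12 h of PDA-66. A gene was called when the adjusted p-value of the edgeR quasi-likelihood test was under 0.001. Of the 10 members tested, 6 were lower and 0 higher, compared with 14.6% lower and 13% higher among all 13777 genes tested. The median log2 fold change of the members was -0.79 and that of all genes -0.01. Among all genes, every 12 h sample was below the controls for 35.4% and every 24 h sample for 31.3%. Every 24 h sample was above those of 12 h for 18.6%. In bulk RNA, fewer cells of a kind and less RNA per cell cannot be told apart.

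TUBA1A, an alpha isotype typical of neurons, had 177 and 155 CPM in the PC-3 controls, compared with 45.1, 39.7 and 47.6 CPM after 12 h and 63.3, 68.0 and 75.8 CPM after 24 h. Both PDA-66 groups lay wholly below the controls, and the 24 h samples above those of 12 h. Its log2 fold change was the largest of the members, -1.91 after 12 h (standard error 0.11, adjusted p = 2.55e-08) and -1.27 after 24 h (standard error 0.11, adjusted p = 2.03e-06).

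TUBB, the main beta tubulin of many dividing cells, was at 1262 and 1068 CPM in the controls, at 467, 466 and 498 CPM after 12 h and at 720, 687 and 700 CPM after 24 h. No sample of either incubation period reached the controls. The log2 fold change of TUBB was -1.29 after 12 h (standard error 0.097, adjusted p = 2.52e-07) and -0.73 after 24 h (adjusted p = 5.45e-05).

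TUBB4B, another widely expressed beta tubulin, had 860 and 824 CPM in the controls, compared with 355, 340 and 368 CPM after 12 h and 474, 455 and 547 CPM after 24 h. The 3 groups did not overlap. The corresponding log2 fold changes were -1.25 (standard error 0.1, adjusted p = 4.27e-07) and -0.78 (adjusted p = 4.17e-05).

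TUBA1C, an alpha isotype of dividing cells, was at 689 and 629 CPM in the controls, at 279, 273 and 300 CPM after 12 h and at 451, 435 and 506 CPM after 24 h. Again the groups were separate from each other. The log2 fold change was -1.22 after 12 h (standard error 0.099, adjusted p = 5.12e-07), whereas the value of -0.51 after 24 h missed the threshold with an adjusted p of 0.00102.

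TUBA1B, the main alpha tubulin mRNA of these cells, had 777 and 610 CPM in the controls, 399, 392 and 444 CPM after 12 h, and 745, 638 and 665 CPM after 24 h. The 12 h samples were below the controls, while the 24 h samples lay within their range. For TUBA1B the 12 h value was -0.75 on the log2 scale (standard error 0.12, adjusted p = 0.000125). After 24 h, the log2 fold change was -0.02 (95% confidence interval -0.28 to 0.23, adjusted p = 0.886). Without PC-3 PDA-66 12 h replicate 3, or the sample P12-1 of that group, the 12 h call of TUBA1B was lost (adjusted p = 0.00122 and 0.00108).

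TUBB3, the beta isotype best known from neurons, was at 190 and 174 CPM in the controls, at 104, 95.1 and 107 CPM after 12 h and at 116, 117 and 157 CPM after 24 h. Here too, no PDA-66 sample overlapped the controls. TUBB3 had a log2 fold change of -0.83 after 12 h (adjusted p = 0.000104) and -0.48 after 24 h (adjusted p = 0.00689, not called).

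The other 4 members were not called at either time in PC-3. TUBA4A had 59.2 and 41.4 CPM in the controls and between 33.0 and 36.8 CPM after 12 h, with a log2 fold change of -0.56 (adjusted p = 0.00512). Without DMSO replicate 3, the lower control, TUBA4A was called after 12 h (-0.78, adjusted p = 0.000188). TUBB6, a beta isotype with a divergent sequence, had log2 fold changes of 0.09 (95% confidence interval -0.18 to 0.36) after 12 h and -0.05 (-0.32 to 0.22) after 24 h. These intervals exclude a decrease of the size found for TUBB and TUBB4B at the same times. TUBB2A was at 0.29 and 0.22 and TUBB2B, with 28 to 68 counts per sample, at -0.39 and 0.12.

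**Figure D2:**
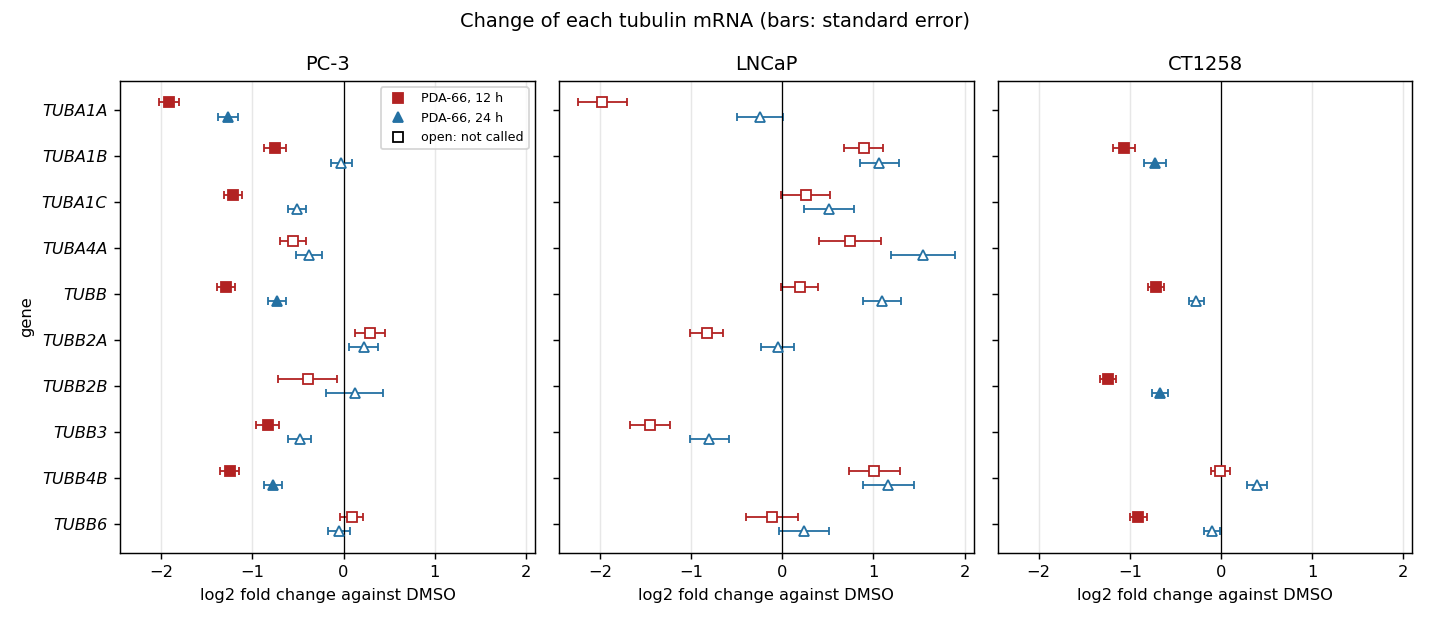
Log2 fold change against DMSO (x axis) of each tubulin mRNA (y axis) after 12 h (red squares) and 24 h (blue triangles) of PDA-66 in PC-3, LNCaP and CT1258, with bars of 1 standard error and filled symbols where the adjusted p-value was under 0.001. In PC-3, 6 members are filled at 12 h and 3 at 24 h, in CT1258 4 and 2, and in LNCaP none, with TUBA1A and TUBB3 left and TUBA1B and TUBB4B right of 0 at 12 h.

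After 24 h, 3 of the 10 members (TUBA1A, TUBB and TUBB4B) were lower in PC-3 and 0 were higher, compared with 10.5% and 8.88% of all genes. The median over the members was -0.43. Without PC-3 PDA-66 24 h replicate 3, the number called was 5, with TUBA1C and TUBB3 added, and without DMSO replicate 3 it was 4, with TUBA1C added (adjusted p = 0.000398). A count that differs between time points does not test their difference, and so the PDA-66 groups were compared directly. TUBA1B (log2 fold change 0.73, standard error 0.11, adjusted p = 0.000846) and TUBA1C (0.71, standard error 0.091, adjusted p = 0.000353) were higher after 24 h than after 12 h. With 0 lower and 2 higher of 10 members, the corresponding shares of all genes were 0.631% and 0.777%. TUBA1A (0.64, adjusted p = 0.00162), TUBB (0.56, adjusted p = 0.00146) and TUBB4B (0.47, adjusted p = 0.00528) lay above 0 but missed the threshold. The samples of TUBA1A, TUBA1B, TUBA1C, TUBB, TUBB3 and TUBB4B after 24 h were each above all of those after 12 h, as was the case for 18.6% of all genes. The count depended on single samples: it was 0 without any 1 of the 6 PDA-66 samples. Those fits called between 59 and 79 of all genes, compared with 194 with all samples. A fit without DMSO replicate 2 or replicate 3 leaves 1 control, and the log2 fold change of TUBB was then 0.56 and 0.57.

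In CT1258 cells, 4 of the 5 tubulin mRNAs tested fell after 12 h and 0 rose, while 22.1% of all 9886 genes were lower and 22.2% higher. The median log2 fold change was -0.91 for the members and -0.0025 for all genes. Among all genes, every 12 h sample was below the controls for 36.6% and every 24 h sample for 33.2%. Every 24 h sample was above the controls for 33.1% and above those of 12 h for 23.3%. The PDA-66 samples of this line had fewer counts than the controls, and thinning the control counts to the mean total of the PDA-66 samples left the number of members called at 4 after 12 h and 2 after 24 h.

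TUBB2B, a beta isotype of developing neurons, was at 349, 404 and 352 CPM in the CT1258 controls, at 154, 149 and 165 CPM after 12 h and at 253, 224 and 218 CPM after 24 h. The 3 groups were separate, with the 24 h samples between the others. Its log2 fold change was -1.24 after 12 h (standard error 0.091, adjusted p = 7.07e-08) and -0.67 after 24 h (adjusted p = 2.36e-05).

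TUBA1B had 1972, 2681 and 2033 CPM in the controls, compared with 1024, 1097 and 1076 CPM after 12 h and 1523, 1238 and 1294 CPM after 24 h. All PDA-66 samples lay below the controls, of which replicate 2 was the highest. The log2 fold changes of -1.06 (standard error 0.12, adjusted p = 3.19e-06) and -0.72 (adjusted p = 0.00014) were both called, the latter not without PDA-66 24 h replicate 2 or replicate 3 (adjusted p = 0.00153 and 0.00143), where the number of members called was 1.

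TUBB6 was at 713, 806 and 720 CPM in the controls, at 371, 394 and 430 CPM after 12 h and at 754, 661 and 672 CPM after 24 h. The 12 h samples were below the controls, and the 24 h samples overlapped them. TUBB6 had a log2 fold change of -0.91 after 12 h (standard error 0.09, adjusted p = 1.07e-06) and -0.10 after 24 h (95% confidence interval -0.29 to 0.09).

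TUBB had 861, 949 and 881 CPM in the controls, 540, 573 and 530 CPM after 12 h, and 802, 715 and 716 CPM after 24 h. No PDA-66 sample reached the control range. The change of -0.71 on the log2 scale after 12 h was called (adjusted p = 4.17e-06), and that of -0.27 after 24 h was not (adjusted p = 0.0111).

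TUBB4B went a different way in this line. Its controls had 343, 412 and 343 CPM, the 12 h samples 347, 373 and 373 CPM and the 24 h samples 557, 426 and 459 CPM. After 12 h the samples overlapped with a log2 fold change of -0.01 (95% confidence interval -0.24 to 0.22), while after 24 h each sample was above the controls (0.39, adjusted p = 0.00553, not called). Without DMSO replicate 2, the 24 h value of TUBB4B was 0.48 and was called (adjusted p = 3.75e-05).

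After 24 h, 2 of the 5 members were lower in CT1258 and 0 higher, beside 17.2% and 16.6% of all genes, with a median of -0.27. Between 24 h and 12 h, TUBB6 was called higher (log2 fold change 0.80, standard error 0.091, adjusted p = 0.000104), 1 of 5 members with 0 lower, compared with 0.85% higher and 1.28% lower among all genes. All 5 members had values above 0 in this comparison, the next being TUBB2B (0.57, adjusted p = 0.00102) and TUBB (0.44, adjusted p = 0.00255). The number called was 0 without PDA-66 12 h replicate 1 or replicate 2 or PDA-66 24 h replicate 3, 2 without DMSO replicate 1 and 5 without DMSO replicate 2. Over all genes, these fits called 20, 30, 30, 231 and 1352, compared with 211 with all samples.

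In LNCaP cells, no tubulin mRNA passed the threshold of 0.001 with the edgeR quasi-likelihood test, and the members moved in both directions. With all samples and this test, few genes passed the threshold at all. After 12 h, 0.0076% of the 13156 genes tested were lower and 0% higher. After 24 h and between both times, the share was 0% in either direction. The study, with edgeR at the same threshold, reported more genes for LNCaP at both times than were called here. It does not name the edgeR test it used. An unadjusted p under 0.05 was found for 5 of 9 members in each of these 3 comparisons, beside 3950 of all 13156 genes after 12 h, 2599 after 24 h and 837 between the times. With the DESeq2 Wald test and with the edgeR likelihood ratio test, 2 members were called after 12 h, 2 after 24 h and 1 between 24 h and 12 h, and with limma voom and sample quality weights 4, 6 and 5. Over all genes, the Wald test called 620, 286 and 1, the likelihood ratio test 571, 258 and 4, and limma voom 1831, 1473 and 189. Results in LNCaP are therefore also given at an adjusted p under 0.05. At that level, 3 of 9 members were lower and 1 higher after 12 h (4.62% and 4.52% of all genes), 0 lower and 3 higher after 24 h (1.57% and 1.35%), and 0 either way between the times (0% of all genes). Among all genes, every 12 h sample was below the controls for 14.6% and above them for 13.5%. After 24 h, these shares were 21.6% and 23.1%. Every 24 h sample was above those of 12 h for 9.77%.

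TUBA1A was low in LNCaP, with 13.8, 19.7 and 17.8 CPM in the controls, 4.12, 5.93 and 3.01 CPM after 12 h and 16.5, 11.8 and 14.9 CPM after 24 h. The 12 h samples were far below both other groups, which overlapped. The log2 fold change was -1.98 after 12 h (standard error 0.27, adjusted p = 0.00726) and -0.25 after 24 h (95% confidence interval -0.81 to 0.32). Between 24 h and 12 h it was 1.73, with an unadjusted p of 8.13e-05 that became 0.535 after adjustment over all genes.

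TUBB3 had 24.3, 29.5 and 39.0 CPM in the LNCaP controls, compared with 9.43, 13.3 and 11.2 CPM after 12 h and 19.3, 15.2 and 18.8 CPM after 24 h. Every PDA-66 sample lay below the controls, and the 12 h samples below those of 24 h. The log2 fold change was -1.45 after 12 h (standard error 0.22, adjusted p = 0.0082) and -0.80 after 24 h (adjusted p = 0.0811). TUBB2A followed after 12 h with -0.83 (adjusted p = 0.0253), with 3.65 to 4.45 CPM against 6.67 to 8.26 CPM in the controls.

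TUBA1B, in contrast, had 469, 371 and 266 CPM in the LNCaP controls, 576, 807 and 670 CPM after 12 h and 786, 752 and 777 CPM after 24 h. All PDA-66 samples were above the controls. Its log2 fold change was 0.89 after 12 h (standard error 0.21, adjusted p = 0.0311) and 1.07 after 24 h (adjusted p = 0.0351).

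TUBB, the member with the highest mean level per kb in the LNCaP controls, was at 966, 718 and 610 CPM in these. It was at 905, 665 and 1048 CPM after 12 h and at 1676, 1570 and 1645 CPM after 24 h. The 12 h samples overlapped the controls, while the 24 h samples were above both groups. The log2 fold change was 0.19 after 12 h (95% confidence interval -0.27 to 0.65) and 1.09 after 24 h (standard error 0.21, adjusted p = 0.0335).

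TUBB4B had 311, 219 and 201 CPM in the controls, 343, 732 and 397 CPM after 12 h and 561, 536 and 541 CPM after 24 h. Both PDA-66 groups were above the controls, with log2 fold changes of 1.01 (adjusted p = 0.0528) and 1.16 (adjusted p = 0.0594). TUBA4A, which was at 105, 48.5 and 53.3 CPM in the controls, reached 212, 189 and 203 CPM after 24 h. The 24 h value of TUBA4A was 1.54 on the log2 scale, with an adjusted p of 0.0487. TUBA1C (0.51 after 24 h, adjusted p = 0.337) and TUBB6, with 11 to 19 counts per sample, did not pass either level with all samples.

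LNCaP PDA-66 12 h replicate 2 held the lowest TUBB (665 CPM) and the highest TUBB4B (732 CPM), TUBA1C (364 CPM) and TUBA4A (172 CPM) of its group. Without it, TUBA1A (log2 fold change -2.25, adjusted p = 0.000437) and TUBB3 (-1.58, adjusted p = 0.000913) were called lower after 12 h at the threshold of 0.001. The 24 h count of members at that threshold remained at 0. Over all genes, 261 were then called after 12 h and 105 after 24 h, compared with 1 and 0 with all samples. TUBA1B was then at 0.76 (adjusted p = 0.0118) and TUBB4B at 0.61 (adjusted p = 0.0182) after 12 h. The median over the 9 members after 12 h, 0.19 with all samples, was -0.08 without this one, so that its sign depended on it. All 9 members had log2 fold changes above 0 between 24 h and 12 h, with and without this sample, and the medians were 0.65 and 0.74.

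As a measure of the pool, the CPM of the members were summed per sample. In PC-3, the sum of the alpha tubulin mRNAs was 1569 ± 188 CPM (SD, n = 2) in the controls, 774 ± 47.9 CPM (SD, n = 3) after 12 h and 1254 ± 69.4 CPM after 24 h. The sum of the beta tubulin mRNAs was 2296 ± 192, 1048 ± 39.4 and 1431 ± 87.8 CPM. Both sums were thus lowest after 12 h, at 0.493 and 0.457 of the control mean, with the 24 h samples between. In CT1258, the alpha sum, which is almost wholly TUBA1B, was at 0.478 of the control mean after 12 h and at 0.607 after 24 h, and the beta sum at 0.617 and 0.905. In LNCaP, the mean sums lay above the controls, although the beta sums after 12 h overlapped them. There the alpha sum was 652 ± 132, 1040 ± 274 and 1269 ± 44.4 CPM and the beta sum 1047 ± 234, 1379 ± 105 and 2202 ± 68.6 CPM in the controls, after 12 h and after 24 h (SD, n = 3 each). In each line the mean sums after 24 h were above those after 12 h. No test was applied to the sums.

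**Figure D3:**
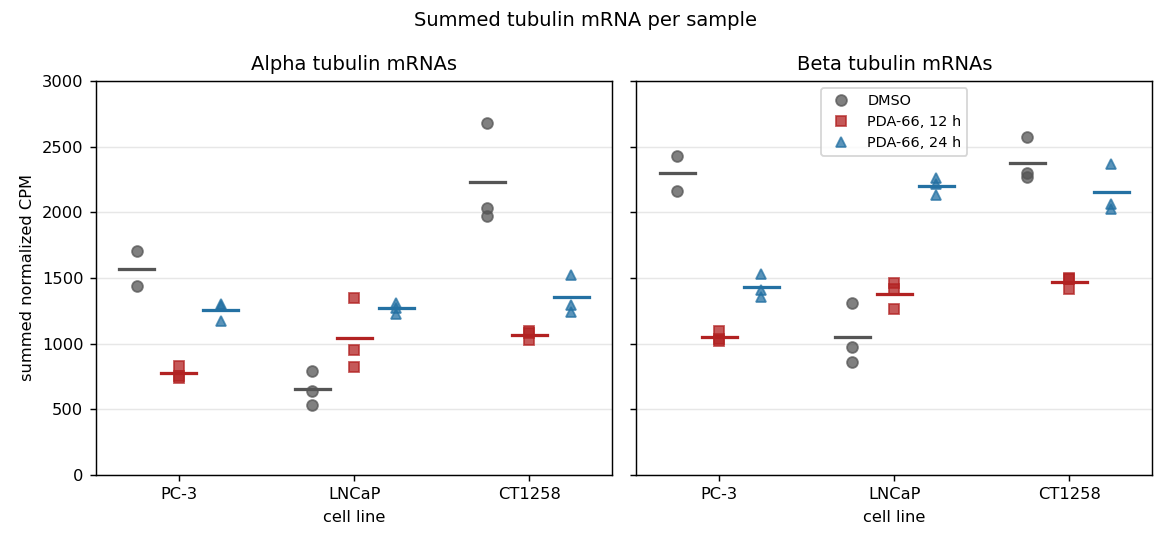
Summed normalized CPM (y axis, from 0) of the alpha tubulin mRNAs (left) and beta tubulin mRNAs (right) in each sample of the 3 cell lines, with bars for group means (DMSO grey circles, PDA-66 12 h red squares, PDA-66 24 h blue triangles). In PC-3 and CT1258 both sums are lowest after 12 h, and in LNCaP both mean sums are highest after 24 h.

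The isotype make-up of the pool is given per length and was not tested. Per kb of transcript, TUBA1A made up between 5.07% and 5.12% of the members in the PC-3 controls, compared with 2.64% to 2.93% after 12 h and 2.73% to 3.16% after 24 h. The share of TUBA1B went from between 20.6% and 22.9% to between 26.6% and 27.6% after 12 h, and that of TUBB6 from between 2.41% and 2.64% to between 5.40% and 5.95%, although the level of TUBB6 was not called changed. In LNCaP, TUBB3 went from between 1.39% and 3.42% to between 0.531% and 0.545% after 12 h and to between 0.544% and 0.649% after 24 h, without overlap with the controls. TUBB made up between 36.3% and 37.6% in the controls, between 18.2% and 34.6% after 12 h and between 38.1% and 38.4% after 24 h.

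**Figure D4:**
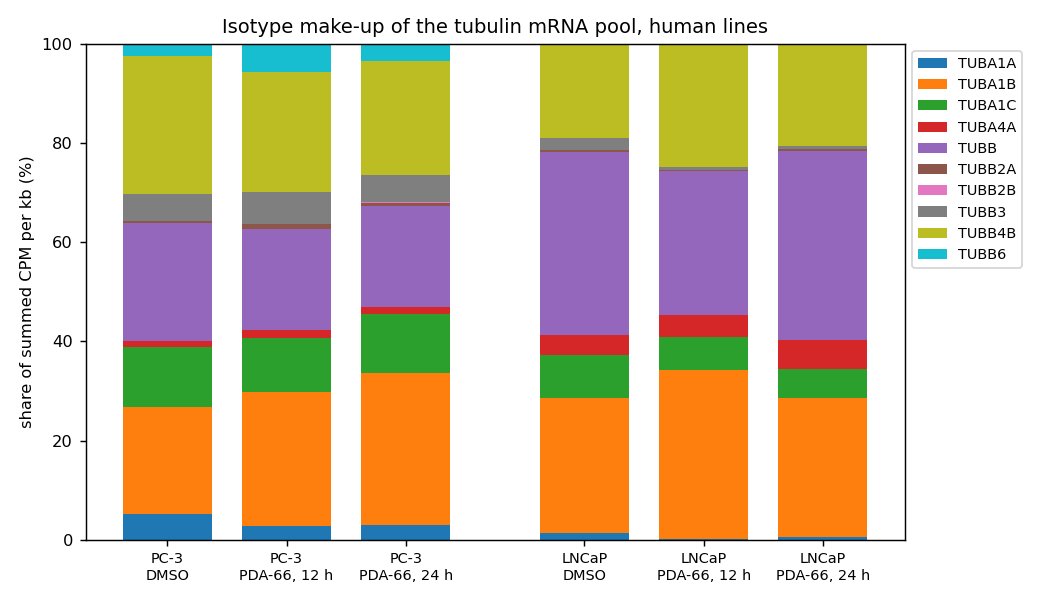
Mean share of each tubulin mRNA in the summed CPM per kb of the 10 members (y axis, %) for the 3 groups of PC-3 and of LNCaP. TUBA1B, TUBB and TUBB4B form the largest shares in each group, and the share of TUBB6 in PC-3 is largest after 12 h (5.63% on average).

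Differences in response between the lines were tested as an interaction in 1 fit over the 11736 genes kept of 14436 shared by name, for members that passed the filter in both lines concerned. Of 7 members, 4 (TUBA1B, TUBB, TUBB4B and TUBB6) differed between at least 1 pair of lines after 12 h, and 3 (TUBA1B, TUBB and TUBB4B) after 24 h. The share of all genes that differed between at least 1 pair was not counted. Per pair, it was 3.57%, 9.33% and 12.8% after 12 h and 1.23%, 4.79% and 3.44% after 24 h. Between PC-3 and LNCaP, 3 of 6 members differed after 12 h, compared with 3.57% of all genes. These were TUBB4B (difference in log2 fold change -2.22, 95% confidence interval -2.79 to -1.64, adjusted p = 8.82e-06), TUBA1B (-1.61, adjusted p = 5.56e-05) and TUBB (-1.45, adjusted p = 7.56e-05), each of them lower in PC-3. After 24 h these were TUBB4B (-1.92, adjusted p = 0.000111) and TUBB (-1.80, adjusted p = 1.88e-05), 2 of 6 members beside 1.23% of all genes. TUBA1A, which was lower after 12 h in both lines, differed by 0.11 after 12 h (95% confidence interval -0.45 to 0.66, adjusted p = 0.835) while the 24 h difference had an interval of -1.54 to -0.46 (adjusted p = 0.016, not called).

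Between PC-3 and CT1258, 1 of 5 members differed after 12 h (9.33% of all genes) and 0 after 24 h (4.79% of all genes, with an unadjusted p under 0.05 for TUBA1B, TUBB, TUBB2B and TUBB4B). This member was TUBB6, with a difference of 0.98 (95% confidence interval 0.62 to 1.35, adjusted p = 0.000179), which fell in CT1258 and was not called in PC-3. TUBB4B, with the opposite pattern, differed by -1.26 (95% confidence interval -1.84 to -0.68) and missed the threshold (adjusted p = 0.00145). The fit estimates the spread of a gene over all lines together, so that the spread within LNCaP enters this pair at both times. The standard error of this TUBB4B difference was 0.28. In the fits per line, that of its 12 h log2 fold change was 0.1 in PC-3 and 0.107 in CT1258. Between LNCaP and CT1258, TUBA1B differed after 12 h (1.91, adjusted p = 2.04e-06), 1 of 4 members beside 12.8% of all genes. After 24 h TUBA1B (1.76, adjusted p = 1.3e-05) and TUBB (1.33, adjusted p = 0.000123) differed, 2 of 4 beside 3.44% of all genes. Dog and human genes were matched by name, and the lines also differ in species, aligner and annotation, so that these cannot be told apart.

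For TUBA1C, TUBB2A and TUBB3, which were not in the canine table, the human lines were compared in a fit of their own over 15018 genes, in which 1.53% of genes differed after 12 h and 0.266% after 24 h. None of the 3 was called. After 12 h, TUBA1C differed by -1.41 (adjusted p = 0.00705) and TUBB2A by 1.17 (adjusted p = 0.00622), while TUBB3 differed by 0.67 (95% confidence interval 0.09 to 1.26, adjusted p = 0.113). All 3 had an unadjusted p under 0.05 after 12 h, and TUBA1C after 24 h (-0.99, adjusted p = 0.0718). In this fit the 12 h difference of TUBB was no longer called (-1.43, adjusted p = 0.00171), nor was the 24 h difference of TUBB4B (-1.91, adjusted p = 0.00273).

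**Figure D5:**
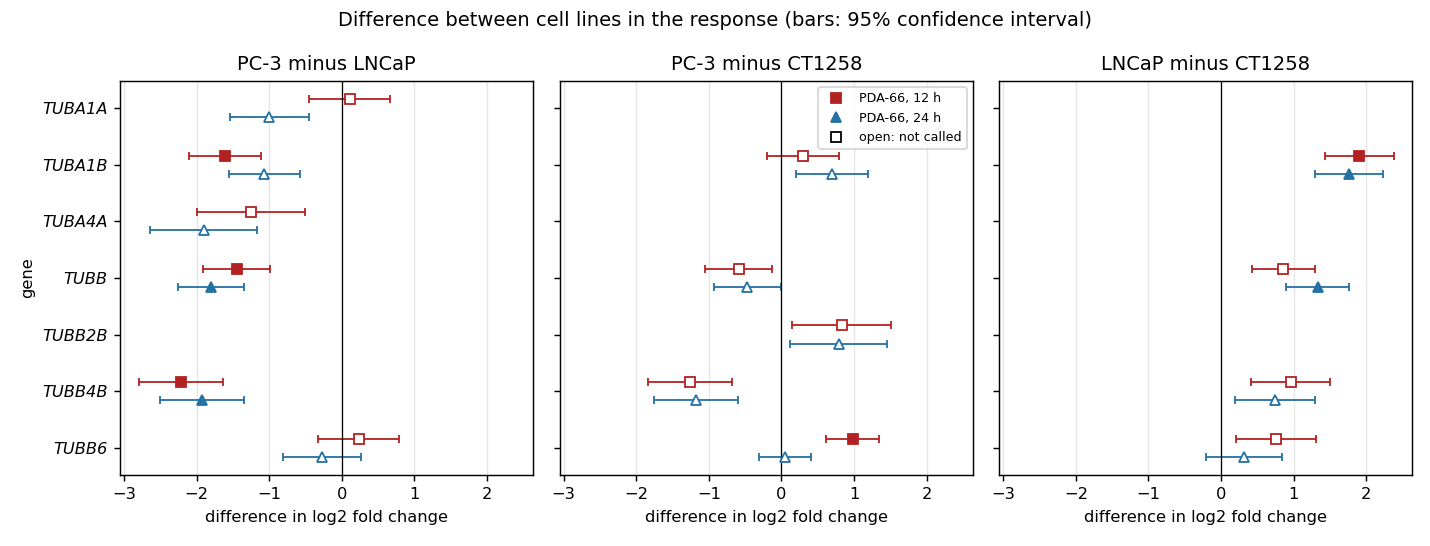
Difference between cell lines in log2 fold change against DMSO (x axis, first line minus second) of the tubulin mRNAs tested in both lines (y axis) after 12 h (red squares) and 24 h (blue triangles), with 95% confidence intervals and filled symbols where the adjusted p-value was under 0.001. TUBB4B, TUBA1B and TUBB lie left of 0 for PC-3 minus LNCaP, and TUBB6 right of 0 for PC-3 minus CT1258 after 12 h.

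The genes that carry out tubulin autoregulation were examined as a list of TTC5, SCAPER and CCR4-NOT subunits, 12 of which were tested in each line. The counts of this and the following lists stand beside the shares of all genes given above, after 12 h 13% higher and 14.6% lower in PC-3 and 22.2% higher and 22.1% lower in CT1258. In PC-3, 1 was lower and 0 higher at both times, which was CNOT2, a scaffold subunit (log2 fold change -0.58 after 12 h, adjusted p = 0.000514). TTC5 itself was at 15.5 CPM in the PC-3 controls and 22.9 CPM after 12 h (0.56, adjusted p = 0.00147), above 0 like in LNCaP (0.56, adjusted p = 0.121). In CT1258, TTC5 was lower after 12 h (-0.98, standard error 0.11, adjusted p = 4.57e-06) and after 24 h (-0.57, adjusted p = 0.000555). Of this list, 2 were lower and 4 higher in CT1258 after 12 h, including the deadenylases CNOT6 (from 54.2 to 164 CPM, adjusted p = 3.87e-09) and CNOT7 (0.81, adjusted p = 5.59e-06), and 1 lower and 3 higher after 24 h. SCAPER was not called in any line, and in LNCaP none of the list passed the 0.05 level. After 12 h, the median over the list was 0.16 in PC-3 and 0.33 in CT1258, and near 0 in LNCaP.

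Of the other tubulin genes, 9 could be tested for PC-3, 8 for LNCaP and 3 for CT1258. TUBG1, the gamma tubulin gene whose first coding bases differ from those of the members, was higher in PC-3 after 12 h (0.61, adjusted p = 0.000377) and 24 h (0.66, adjusted p = 0.000292), was above the LNCaP controls after 12 h (1.32, adjusted p = 0.00817), and was at -0.41 in CT1258 (adjusted p = 0.00271). With TUBD1 (0.77, adjusted p = 0.000544), the PC-3 list held 2 higher and 0 lower after 12 h, and 1 higher and 0 lower after 24 h. The beta isotype TUBB4A, not among the members, was higher in CT1258 after 12 h (0.78, adjusted p = 1.25e-05), 24 h (1.53, adjusted p = 4.6e-08) and between these times (0.75, adjusted p = 0.000319). In LNCaP TUBB4A was at 4.76 CPM in the controls and 1.11 CPM after 12 h (-2.10, adjusted p = 0.00518, past the 0.05 level), and in PC-3 it was at -0.22 (adjusted p = 0.258). TUBB4A was the 1 gene of 3 called in CT1258.

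Of the 20 tubulin folding genes, which encode the CCT chaperonin, prefoldin and the tubulin cofactors, 6 were higher and 1 lower in PC-3 at both times. The largest increases after 12 h were those of the CCT subunits TCP1 (0.94, adjusted p = 2.3e-06), CCT6A (0.93, adjusted p = 2.85e-06) and CCT4 (0.80, adjusted p = 7.8e-06), and the cofactor TBCC was lower (-0.58, adjusted p = 0.000336). In CT1258, 4 of 17 were higher and 2 lower after 12 h, led by CCT6A (2.20, adjusted p = 5.47e-10), and 3 higher and 1 lower after 24 h, which is close to or below the shares of all genes in this line. In PC-3 the folding list had a median of 0.25 after 12 h, in CT1258 of 0.21, and in LNCaP of 0.42, with 2 genes higher at the 0.05 level there. Of 10 genes for other parts of the cytoskeleton, 4 were higher and 1 lower in PC-3 after 12 h, among them FLNA (1.29) and the beta actin gene ACTB (0.90) as higher and the keratin gene KRT18 (-1.06) as lower, and 1 higher and 1 lower after 24 h. Of 5 in CT1258, 2 were higher and 2 lower after 12 h, with the gamma actin gene ACTG1 at -1.30, and 2 higher and 3 lower after 24 h. LMNB1 was the only one of them to pass the 0.05 level in LNCaP (1.61 after 12 h, adjusted p = 0.0163).

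Genes of the G2 phase and mitosis were summed per sample in the same way. Their sum over 10 genes in PC-3 was between 1345 and 1587 CPM in the controls, between 2066 and 2144 CPM after 12 h and between 1978 and 2157 CPM after 24 h. In LNCaP the sums were 568 to 1297, 2079 to 2859 and 2163 to 2502 CPM, and over the 9 genes listed for CT1258 they were 1256 to 1407, 3214 to 3495 and 3939 to 4064 CPM. No PDA-66 sample overlapped the controls of its line. For single genes in PC-3, every 12 h sample lay above the controls for 35.5% of all genes and every 24 h sample for 30.6%. The shares were 13.5% and 23.1% in LNCaP and 36.1% and 33.1% in CT1258. Gene by gene, 3 of 10 were called higher in PC-3 after 12 h and 2 after 24 h, and in CT1258 7 and 8 of 9, with 0 lower. In LNCaP 0 were called, and 6 of 10 were higher at the 0.05 level after 12 h and 1 after 24 h. Their part in the tubulin levels was not tested. Of the 5 epithelial markers, 2 fell in PC-3 after 12 h and 3 after 24 h, and none passed either level in LNCaP. Of the luminal markers, 1 of 6 was lower at the 0.05 level in LNCaP after 12 h, and 1 of 2 was lower in CT1258 at both times. Of the 2 blood and vessel markers tested in PC-3, PECAM1 was lower after 12 h, and none had enough counts for a test in LNCaP and CT1258. The part of these markers in the tubulin results was not tested.

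The genes with the pattern most like the mean pattern of the members, measured by Pearson's r of log2 CPM across the samples of a line, are named as a description. In PC-3 these were ELP3 (r = 0.996), MUC5B (0.994) and SELENBP1 (0.991), followed by PHC2 and QARS, among 9838 genes over 8 samples. In CT1258 they were TAF15 (0.996), MARS (0.995), KIAA2013, C11orf68 and EMC10 over 9 samples. In LNCaP ALDOC (0.958) and UBE2G2 (0.926) came first, before RASA3, EPB41L1 and CMIP, also over 9 samples. The samples fall into 3 groups and share their normalization.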

How the data were processed

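Poly(A)-selected RNA of the 3 cell lines was sequenced as single reads. Per the labels and the study's methods, the authors mapped human reads to HG19 with STAR 2.3.1s in RNA Express and canine reads to CanFam3.1 with BWA, counted the latter with the R package GAGE, and deposited whole counts per gene without normalization. Strand use and the handling of reads with several matches are not given in the sources used here. Trailing separators behind 1 PC-3 column were removed, and 2 PC-3 PDA-66 12 h samples, P12-1 and P12-2, have no clear replicate number. A separate fit per cell line took in its 3 groups, in edgeR 4.0.16 (R 4.3.3): filterByExpr, TMM, quasi-likelihood F test, Benjamini-Hochberg adjustment over all genes tested, and a threshold of 0.001, the one used in the study. CPM use TMM-scaled library sizes, standard errors were derived from the F statistic, and the fit was tested on simulated data. No samples were within sampling noise of each other. Positions, lengths and sequences came from GRCh37 with GENCODE release 44, where all members were found, and canine genes were given no position.

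The members and the lists of other tubulins, autoregulation and CCR4-NOT genes, tubulin folding genes, other cytoskeleton genes, G2/M genes and luminal, epithelial, and blood and vessel cell markers were chosen with earlier results of these data known. All members are named, and of each other list at most 4 genes past the threshold in a line, those with the largest log2 fold change, TTC5, SCAPER and TUBG1 being named beyond this rule. The likeness of patterns was ranked among genes with a mean of at least 10 CPM. As alternatives, size factors of DESeq2, scaling by library size alone, no filter on counts, a filter of 1 CPM in 3 samples, the DESeq2 1.42.0 Wald test, the edgeR likelihood ratio test, limma 3.58.1 voom with sample quality weights, fits of only the groups or lines compared, an adjusted p-value under 0.05, a replicate block, thinned CT1258 control counts and fits leaving out 1 sample each were run. Intervals cover 95%. Where a fit left 1 sample in a group, that sample was assumed to vary like the other groups. Some marker genes are not reported here.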

Additional observations from a re-analysis of the deposited data

Results flagged for a closer look

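The following results stood out because the response of a tubulin mRNA differed between groups under the test of the difference itself, at an adjusted p-value under 0.001 in edgeR's quasi-likelihood test. After 12 h, the log2 fold change against DMSO in PC-3 minus that in LNCaP was -1.61 for TUBA1B, -1.45 for TUBB and -2.22 for TUBB4B. For PC-3 minus CT1258, it was 0.98 for TUBB6, and for LNCaP minus CT1258, 1.91 for TUBA1B. After 24 h, the difference between PC-3 and LNCaP was -1.80 for TUBB and -1.92 for TUBB4B, and that between LNCaP and CT1258 was 1.76 for TUBA1B and 1.33 for TUBB. In the fit of the human lines alone, TUBB after 12 h (adjusted p = 0.00171) and TUBB4B after 24 h (adjusted p = 0.00273) were not called. TUBA1B and TUBB4B after 12 h and TUBB after 24 h remained called there. Between incubation periods, the response after 24 h minus that after 12 h was 0.73 for TUBA1B and 0.71 for TUBA1C in PC-3, and 0.80 for TUBB6 in CT1258. LNCaP PDA-66 12 h replicate 2 stood apart from its group, and without it the number of members that differed between lines was 5 after 24 h in place of 3. The share of all genes that differed in that fit was not counted.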

How the results depend on the processing

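The direction of a called member turned around under none of the alternatives run. The numbers of members past the threshold that moved by over 1.5 times are given here, and the causes were not tested. For PC-3 at 24 h against 12 h (2), the count was 4 with library size only and without a filter, and 5 with the DESeq2 Wald test, the edgeR likelihood ratio test, limma voom, only the 2 groups compared or an adjusted p under 0.05. Over all genes, the number called went from 194 to 205 and 285 under the first 2 settings. Under the others, in the order named, it was 514, 696, 2320, 479 and 1390. For PC-3 at 24 h against DMSO (3), the member count was 6 at an adjusted p under 0.05. The number called over all genes went from 2665 to 6873. For LNCaP (0 in each comparison), the counts after 12 h, after 24 h and between these were 2, 2 and 1 with the DESeq2 Wald test and the likelihood ratio test, 4, 6 and 5 with limma voom, and 4, 3 and 0 at an adjusted p under 0.05. At that level, 1202, 384 and 0 of all genes were called, and those for the other tests are given above. For CT1258 at 24 h against DMSO (2), the count was 4 with limma voom, 1 with only the 2 groups compared and 4 at an adjusted p under 0.05. Over all genes, 3340 were called in the main fit and 5425, 2407 and 6142 under these settings. For CT1258 at 24 h against 12 h (1), the count was 2 with DESeq2 size factors and without a filter, 3 with the DESeq2 Wald test and the likelihood ratio test, 5 with limma voom, and 4 with only the 2 groups compared and at an adjusted p under 0.05. Over all genes, 211 were called in the main fit. In the order named, the settings called 207, 345, 662, 730, 2073, 1172 and 1907. For the difference between lines after 24 h (3), the member count was 5 at an adjusted p under 0.05, without a count over all genes.

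Over the fits that left out 1 sample each, the counts ranged from 3 to 5 for PC-3 at 24 h, 0 to 5 for PC-3 at 24 h against 12 h, 0 to 2 for LNCaP at 12 h, 1 to 3 for CT1258 at 24 h, 0 to 5 for CT1258 at 24 h against 12 h and 3 to 5 for the difference between lines after 24 h.

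Replicate numbers shared by groups did not pair the samples, with correlations of deviations between -0.42 and 0.19 over same-numbered samples. With the replicate block, the count for PC-3 at 24 h was 1 in place of 3, since TUBB and TUBB4B were no longer called while TUBA1A was, and for LNCaP and CT1258 it moved by less than 1.5 times. For PC-3 at 12 h, no such fit was made because the numbers of P12-1 and P12-2 are unclear. The precision for TUBB2B in PC-3 and TUBB6 in LNCaP is limited by their low counts.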
